A study of Homo sapiens with 6 samples.

Results

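Small nucleolar RNAs (snoRNAs), the related RNAs of Cajal bodies and the SNHG genes that carry many of them were measured in 3 near isogenic human fibroblast lines. The members were the genes whose symbol starts with SNORD, SNORA, SCARNA or SNHG, together with GAS5, where a probe set of the array lists that symbol alone, and each was read from its probe set with the highest mean. By this rule 194 of the 18417 genes compared were members: 115 box C/D snoRNAs (SNORD), 61 box H/ACA snoRNAs (SNORA), 16 Cajal body RNAs (SCARNA) and 2 host genes, SNHG17 and SNHG29. Changes are described for the 107 members whose mean log2 signal over the 6 arrays was at least 6, which 12721 of all genes reached: 59 box C/D, 34 box H/ACA, 12 Cajal body RNAs and both host genes. The other 87 members lay below that level. Just inside it were SNORD21 at a mean of 6.01 and SCARNA11 at 6.04, and just outside were SNORA35 at 5.99 and SNORD82 at 5.91.

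The study followed the stepwise transformation of human cells. BJELM cells derive from BJEL cells, hold a MYC-estrogen receptor fusion (MYC-ER) beside the BJEL transgenes, and were kept in G-418, hygromycin, puromycin and, continuously, 4-hydroxytamoxifen, the ligand that switches the fusion protein on. BJEL cells derive from BJ cells, carry hTERT, the catalytic part of telomerase, and the SV40 early region with the large T and small t antigens, and were kept in G-418 and hygromycin. BJ are primary foreskin fibroblasts without transgenes. The drugs therefore cannot be told apart from the introduced genes, and each line is compared as 1 line. Each line has 2 biological replicates, hybridised to Affymetrix Gene ST arrays after random-primed labelling of total RNA, and values are log2 signals. TERT had signals of 10.84 and 10.78 in BJELM, 10.71 and 10.97 in BJEL, and 7.77 and 7.88 in BJ. MYC had signals of 9.57 and 8.90 in BJELM, 10.22 and 10.12 in BJEL, and 9.47 and 9.61 in BJ. The BJELM label was thus not matched by a higher MYC signal (-0.93 ± 0.21 against BJEL on the log2 scale, limma adjusted p = 0.0444, and between -1.27 and -0.60 with each array left out), so that each value given for BJELM below is one of the arrays labelled BJELM. How far the MYC probes read the fusion RNA was not tested. ODC1, a textbook target of MYC, named here after its values were seen, had 12.27 and 12.34 in BJELM, 11.37 and 11.50 in BJEL, and 10.996 and 11.11 in BJ. It was 0.87 ± 0.09 higher in BJELM than in BJEL (limma adjusted p = 0.00543). ODC1 is 1 gene picked from many, MYC targets were not examined as a set, and the activity of MYC in BJELM was not tested. Of 9 fibroblast markers, 8 fell in BJELM and 6 in BJEL against BJ, where 6.49% and 3.05% of all genes at the mean of 6 fell. The summed linear signal of these markers was 18055 and 13983 in BJELM, 17206 and 16707 in BJEL, and 37270 and 33920 in BJ. DCN, the matrix proteoglycan decorin, had a signal of 6.98 and 5.40 in BJELM, 7.39 and 7.0 in BJEL, and 10.26 and 10.15 in BJ, while the intermediate filament VIM stayed between 12.87 and 13.07 on all 6 arrays. None of 10 markers of epithelial, endothelial, leukocyte or melanocyte cells was called, and the part of the fibroblast marker levels in the results below was not tested. Signals refer to an equal amount of total RNA, so a change in the RNA content of a cell and a change in a transcript's share of it cannot be told apart.

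As background, a box C/D snoRNA binds the methyltransferase fibrillarin and guides 2′-O-methylation of ribosomal RNA by base pairing, and a box H/ACA snoRNA binds the pseudouridine synthase dyskerin and guides the isomerisation of uridine. Cajal body RNAs guide the same modifications on the small nuclear RNAs of the spliceosome. Most human snoRNAs are not transcribed from promoters of their own: they lie in introns of host genes and are trimmed out of the spliced intron. The SNHG genes and GAS5 are hosts whose exons code for no known protein, and the spliced RNA of several of them, GAS5 and SNHG1 among them, is removed by nonsense-mediated decay. Ribosomal protein genes form the other large class of hosts. A probe set for a snoRNA reads any RNA that holds its sequence, so that the mature snoRNA and unspliced host RNA are not separated here.

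GAS5 and SNHG1 themselves are read on this array by probe sets that list several symbols (3 of them list GAS5 and 6 list SNHG1), so no level is given for either gene, and both loci are described through the snoRNAs in their introns. In the RefSeq annotation, 103 of the 105 small RNAs at the mean of 6 lie inside the span of another gene. The exceptions were SNORD13, the U13 RNA, which has a promoter of its own, and SNORD32B. These spans belong to 69 genes once SNHG17 and SNHG29 are counted, and 56 of them have a promoter sequence in the RefSeq table (build GRCh38.p14, 250 bases before to 50 bases after the start site). A start of the 5′ terminal oligopyrimidine type, taken as a C at the start site followed by at least 4 pyrimidines, was present in 21 of the 56 host promoters (37.5%) and in 4.07% of all 35116 promoters. The palindromic E-box CACGTG, to which MYC with its partner MAX can bind, was in 4 of the 56 (7.14%) and in 7.26% of all promoters. Of the 11 hosts of members that were called below, 5 had a promoter in the table: none of these held the E-box and 1, RACK1, had the pyrimidine start. A match of letters is a description and not a site of binding or of translational control.

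The following sequences are those of the 5 hosts of called members that have a promoter in the table. The other hosts of called members have none there. SNHG5, with 0 called members, is added as an SNHG gene with a pyrimidine start. Each runs 5′ to 3′ on the strand of the host, from 100 bases before the start site to 15 bases from it onward, and capitals mark the run of pyrimidines at the start site where the motif is present.
SNHG17 (chr20:38435314-38435428, minus strand): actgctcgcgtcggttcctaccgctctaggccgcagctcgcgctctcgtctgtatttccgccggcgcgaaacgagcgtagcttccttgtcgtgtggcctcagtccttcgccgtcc
SNHG1 (chr11:62855871-62855985, minus strand): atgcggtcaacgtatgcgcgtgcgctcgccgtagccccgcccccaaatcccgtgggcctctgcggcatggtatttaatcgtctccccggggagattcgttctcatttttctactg
NCL (chr2:231464470-231464584, minus strand): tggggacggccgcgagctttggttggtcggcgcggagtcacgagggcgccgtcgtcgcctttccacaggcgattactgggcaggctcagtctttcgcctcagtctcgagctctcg
HSPA8 (chr11:123062122-123062236, minus strand): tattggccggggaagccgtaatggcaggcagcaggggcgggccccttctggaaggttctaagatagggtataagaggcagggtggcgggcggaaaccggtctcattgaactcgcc
RACK1 (chr5:181243892-181244006, minus strand): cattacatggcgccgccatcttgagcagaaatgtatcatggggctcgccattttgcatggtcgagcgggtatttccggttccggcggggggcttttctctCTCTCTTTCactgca
SNHG5 (chr6:85678719-85678833, minus strand): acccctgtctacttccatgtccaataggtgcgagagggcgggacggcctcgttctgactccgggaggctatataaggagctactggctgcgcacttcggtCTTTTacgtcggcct
The start sites of RACK1 and SNHG5 open with CTCTC and CTTTT. Those of SNHG1 and HSPA8 open with CTCAT, in which an A ends the pyrimidine run after 3 bases, and the start sites of SNHG17 and NCL in this table do not open with a C. The 31 members in hosts with a pyrimidine start had a median change of 0.55 in BJELM and 0.50 in BJEL against BJ, with 1 and 0 called, and the 54 members in hosts with another start had medians of 0.47 and 0.31, with 6 and 5 called. Members whose host has no promoter in the table are in neither group. Among them are SNORD4A, SNORD4B, SNORD21, SNORA21 and SNORA10, called in BJELM and lying in ribosomal protein genes, and SNORA22. The counts of calls therefore do not compare the kinds of start.

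In what follows a member rose or fell where its limma adjusted p, taken over all 18417 genes, was under 0.05 and its change at least 2-fold. Changes are differences of log2 signal with their SE, from 2 arrays per line. The first question was how far the members moved in the fully transformed line. In BJELM against BJ, 14 of the 107 members rose and 0 fell, where 5.68% of all genes at the mean of 6 rose and 6.49% fell. The median change was 0.53 over these members and 0.009 over all genes at that level, and it was 0.32 over the 194 members without the level minimum. Both BJELM arrays lay above both BJ arrays in 62 members, against 35.7% of all genes. Without the fold minimum 39 members were past the adjusted p upward and 2 downward, where 20.8% of all genes were upward and 17.6% downward. With probe sets of several symbols included 33 members rose. There a probe set counts for each member symbol it lists, so 1 reading can count more than once, and the total is no longer 107. With a plain t-test for unequal variances (Welch) 3 rose at unadjusted p and 0 after Benjamini-Hochberg adjustment. The study used a modified t-test, which was not run here. SNORA75 and SNORD21 reached the mean of 6 only through the lines in which they were higher, with BJ means below it, and 12 members rose without them. Among the 14 were 7 box C/D snoRNAs, 6 box H/ACA snoRNAs and the host gene SNHG17. Without BJ replicate 1 or without BJELM replicate 2, 9 members rose, of which 8 were among the 14 in each case.

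In BJEL against BJ, the step before MYC, 6 members rose and 0 fell, with 4.05% of all genes rising and 3.05% falling. The median change was 0.43, against 0.006 over all genes at the mean of 6, and 0.22 over the 194 members. Both BJEL arrays lay above both BJ arrays in 59 members, against 35.4% of all genes. With probe sets of several symbols included 17 members rose, again out of a larger set in which 1 reading can count more than once. With the plain Welch t-test 3 rose at unadjusted p and 0 after adjustment. Without SNORA75, whose BJ mean was below 6, 5 members rose. Of the 6, 5 also rose in BJELM against BJ, where the same BJ arrays serve as the control, so that the shared count is no independent result. Without BJ replicate 1 or without BJEL replicate 1, 2 members rose. In BJELM against BJEL, 0 members rose and 1 fell, with 1.23% of all genes rising and 2.46% falling. At unadjusted p under 0.05, 22 members differed in that comparison, where 33.7% of all genes did. The median difference there was 0.14, against 0.010 over all genes, and 34 members had both BJELM arrays above both BJEL arrays, against 28.7% of all genes. The 1 call was lost without either BJEL array or without BJELM replicate 1, and without that array 3 members rose, SNORD58A, SNORD116-6 and SNORD116-14. Without BJELM replicate 2, 3 members fell, SNORD114-3, SNORD114-26 and SNORA62.

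**Figure D1:**
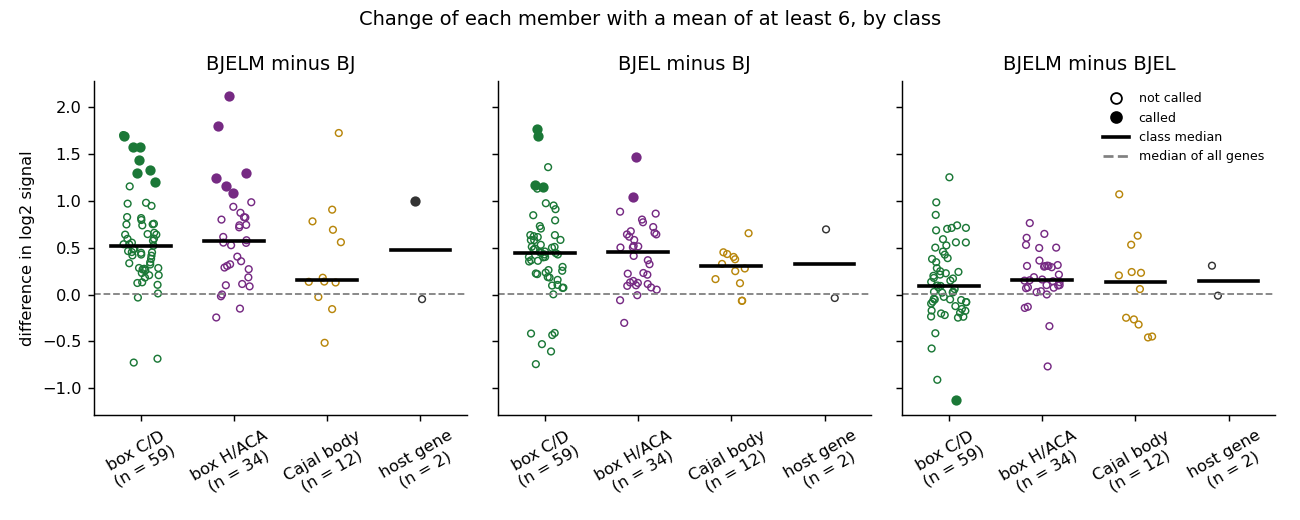
Difference in log2 signal (vertical axis) of each member with a mean of at least 6, by class (horizontal axis), for BJELM minus BJ, BJEL minus BJ and BJELM minus BJEL; filled points were called, black bars are class medians and the dashed line is the median of all genes at that level. Box C/D and box H/ACA medians lie at 0.52 and 0.57 in BJELM minus BJ and at 0.44 and 0.46 in BJEL minus BJ, above the dashed line near 0, and in BJELM minus BJEL they lie at 0.09 and 0.16.

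Among box C/D snoRNAs, both measured RNAs of the SNHG1 locus rose in both derived lines. SNORD30 (U30, probe set 7948900), a guide for the large-subunit rRNA, had signals of 9.05 and 9.17 in BJELM, 9.21 and 9.25 in BJEL, and 7.42 and 7.66 in BJ. The derived lines lay together above BJ with a gap several times wider than the distance between arrays of a line. SNORD30 rose by 1.57 ± 0.11 in BJELM (adjusted p = 0.000386) and by 1.69 ± 0.11 in BJEL (adjusted p = 0.000734), and stood at -0.12 ± 0.11 in BJELM against BJEL (adjusted p = 0.552). SNORD28 (U28, probe set 7948904), a guide for the small-subunit rRNA, had signals of 9.40 and 10.54 in BJELM, 9.90 and 10.42 in BJEL, and 7.91 and 8.88 in BJ. Its groups did not overlap with BJ, but its arrays of 1 line were up to 1.14 apart. SNORD28 rose by 1.57 ± 0.46 in BJELM (adjusted p = 0.0483) and by 1.77 ± 0.46 in BJEL (adjusted p = 0.0473). Its call in BJELM was lost without BJ replicate 1, BJELM replicate 2 or either BJEL array, with adjusted p-values between 0.0709 and 0.224, and its call in BJEL was lost without BJ replicate 1 or either BJEL array (0.118 to 0.214).

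SNORD14E (probe set 7952335) was the third box C/D snoRNA that rose in both derived lines. It is a copy of U14, which in yeast is needed for cleavage of the small-subunit rRNA precursor, and lies in HSPA8, the gene of the constitutive HSC70 chaperone. Signals were 7.22 and 7.53 in BJELM, 7.30 and 7.15 in BJEL, and 6.19 and 5.96 in BJ. The 4 arrays of the derived lines overlapped each other and lay above BJ. The rise was 1.3 ± 0.14 in BJELM (adjusted p = 0.0015) and 1.15 ± 0.14 in BJEL (adjusted p = 0.00412). SNORD14C, another copy in the same gene, had 9.33 and 10.66 in BJELM, 9.43 and 10.37 in BJEL, and 8.53 and 9.81 in BJ, and its difference of 0.82 ± 0.59 in BJELM did not pass (adjusted p = 0.401).

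RPL23A, a large-subunit ribosomal protein gene, holds 3 members. SNORD4B had signals of 8.16 and 8.98 in BJELM, 7.54 and 8.50 in BJEL, and 6.41 and 7.38 in BJ. SNORD4A had 8.30 and 8.79 in BJELM, 7.80 and 8.25 in BJEL, and 6.79 and 7.43 in BJ. In both RNAs the lowest BJELM array was above the highest BJ array, and BJEL lay between. SNORD4B rose by 1.68 ± 0.46 (adjusted p = 0.0392) and SNORD4A by 1.43 ± 0.28 (adjusted p = 0.0112) in BJELM, while the differences of 1.13 ± 0.46 (adjusted p = 0.161) and 0.91 ± 0.28 (adjusted p = 0.0751) in BJEL did not pass. With a replicate block SNORD4B was called in BJEL as well (adjusted p = 0.00015). SNORD42A had 6.87 and 8.76 in BJELM, 6.99 and 8.21 in BJEL, and 6.38 and 7.66 in BJ, and the lines overlapped. Without BJ replicate 1 neither SNORD4B (adjusted p = 0.186) nor SNORD4A (adjusted p = 0.0534) was called, and without BJELM replicate 2 SNORD4B was not (adjusted p = 0.155).

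SNORD21 and SNORD96A completed the box C/D snoRNAs that rose in BJELM. SNORD21, in the large-subunit protein gene RPL5, had 6.33 and 7.04 in BJELM, 5.92 and 6.03 in BJEL, and 4.99 and 5.72 in BJ, so that it reached the mean of 6 through the derived lines, and it rose by 1.33 ± 0.30 in BJELM (adjusted p = 0.0206). SNORD96A, in RACK1, the gene of a scaffold protein of the small ribosomal subunit, had 7.96 and 8.38 in BJELM, 7.65 and 7.51 in BJEL, and 6.80 and 7.14 in BJ, and rose by 1.2 ± 0.18 in BJELM (adjusted p = 0.0043). The neighbouring SNORD95 had 9.10 and 9.06 in BJELM, 8.71 and 8.60 in BJEL, and 8.33 and 8.52 in BJ, with a difference of 0.66 ± 0.10 in BJELM (adjusted p = 0.005), below the fold minimum. The 3 lines of these RNAs were ordered alike, with BJELM above BJEL and BJEL above BJ, although for SNORD96A and SNORD21 the step from BJEL to BJELM did not pass (adjusted p = 0.0954 and 0.213). Without BJELM replicate 2 the change of SNORD96A was 0.99 and that of SNORD21 0.98, both under the fold minimum, and SNORD21 was also lost without BJ replicate 1 (0.96).

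**Figure D2:**
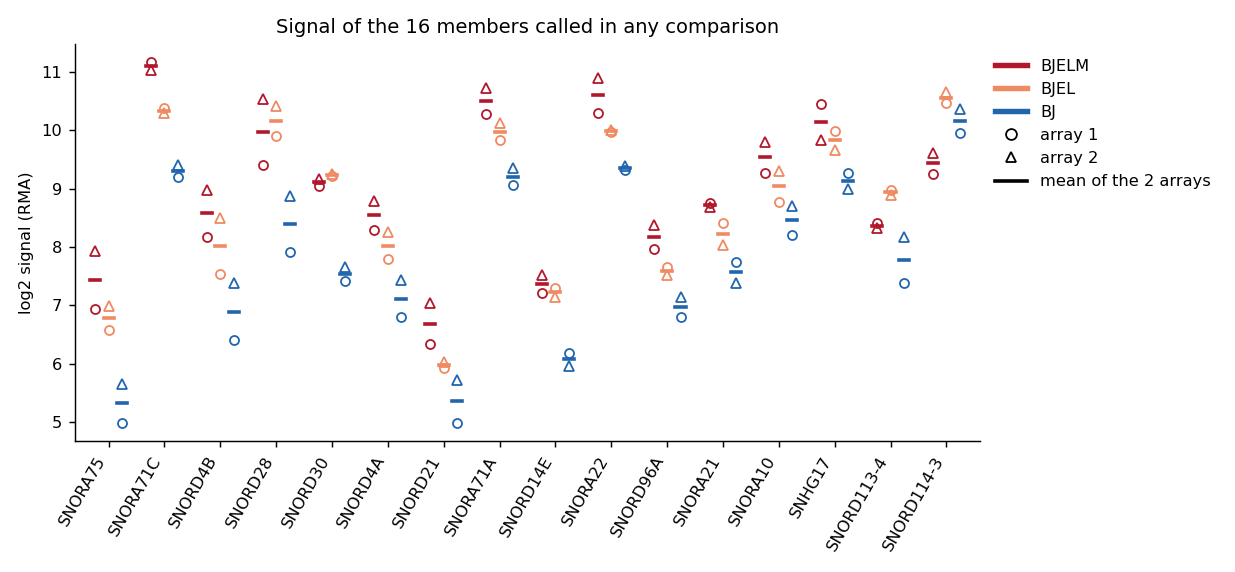
Log2 signal (vertical axis) on each array for the 16 members called in any of the 3 comparisons (horizontal axis), with BJELM, BJEL and BJ from left to right within each member, circles for array 1, triangles for array 2 and bars for the mean of both. In the 14 members from SNORA75 to SNHG17 both BJELM arrays lie above both BJ arrays, while SNORD113-4 has its highest values in BJEL and SNORD114-3 its lowest in BJELM.

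Of the box H/ACA snoRNAs, SNORA75 (U23, probe set 8059708) lies in NCL, the gene of nucleolin, an abundant nucleolar protein that binds ribosomal RNA precursors. Signals were 6.94 and 7.92 in BJELM, 6.58 and 6.99 in BJEL, and 4.99 and 5.65 in BJ, so that it too passed the mean of 6 through the derived lines, and its BJ signal lay below the level set for describing changes. It rose by 2.11 ± 0.36 in BJELM (adjusted p = 0.00749) and by 1.47 ± 0.36 in BJEL (adjusted p = 0.0412). The call in BJELM held without any 1 array, with changes between 1.62 and 2.60, and the call in BJEL was lost without any of the 4 BJ and BJEL arrays (adjusted p from 0.0586 to 0.199).

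SNHG17, an RNA gene without a known protein product, spans 3 box H/ACA members of 1 family, which guide pseudouridylation of the small-subunit rRNA. SNORA71C (probe set 8066260) had signals of 11.17 and 11.03 in BJELM, 10.38 and 10.29 in BJEL, and 9.19 and 9.40 in BJ. The 3 lines were fully separated, with arrays of a line at most 0.21 apart. It rose by 1.80 ± 0.11 in BJELM (adjusted p = 0.000275) and by 1.04 ± 0.11 in BJEL (adjusted p = 0.00261), and the difference of 0.76 ± 0.11 between BJELM and BJEL passed the adjusted p (0.0117) but not the fold minimum. SNORA71A had 10.28 and 10.73 in BJELM, 9.83 and 10.12 in BJEL, and 9.06 and 9.35 in BJ, and rose by 1.3 ± 0.19 in BJELM (adjusted p = 0.00417). SNORA71D had 12.81 and 13.04 in BJELM, 12.72 and 12.77 in BJEL, and 12.41 and 12.34 in BJ, also separated from BJ, with a smaller difference of 0.55 ± 0.10 (adjusted p = 0.0105). These RNAs resemble each other in sequence, and how far their probes read more than 1 of them was not tested. The host probe set of SNHG17 (8066247) had 10.44 and 9.83 in BJELM, 9.99 and 9.67 in BJEL, and 9.27 and 9.0 in BJ, and rose by 1.00 ± 0.23 in BJELM (adjusted p = 0.020), just at the fold minimum. That call was lost without BJELM replicate 1 (0.69), BJ replicate 2 (0.86) or BJ replicate 1 (adjusted p = 0.0538). A dimmer probe set of SNHG17, not used for the test, had 8.53 and 8.95 in BJELM, 8.17 and 8.50 in BJEL, and 6.65 and 7.51 in BJ, and thus the same order of the lines.

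The other box H/ACA snoRNAs that rose in BJELM were SNORA22, SNORA21 and SNORA10. SNORA22, within the noncoding CCT6P1, had 10.30 and 10.89 in BJELM, 9.97 and 10.01 in BJEL, and 9.32 and 9.38 in BJ (1.24 ± 0.19, adjusted p = 0.00451). SNORA21, in the large-subunit protein gene RPL23, had 8.74 and 8.69 in BJELM, 8.41 and 8.03 in BJEL, and 7.74 and 7.39 in BJ (1.15 ± 0.17, adjusted p = 0.00412). SNORA10, in the small-subunit protein gene RPS2, had 9.27 and 9.80 in BJELM, 8.78 and 9.30 in BJEL, and 8.21 and 8.70 in BJ (1.08 ± 0.27, adjusted p = 0.027), and 2 probe sets with the same 6 values list it. In each of the 3 both BJELM arrays were above both BJ arrays. The calls of SNORA22 and SNORA10 were lost without BJELM replicate 2 (0.95 and 0.82), that of SNORA10 also without BJ replicate 1 (0.83), and that of SNORA21 without BJ replicate 2 (0.98). Among box H/ACA members that were not called, SNORA3B in RPL27A came nearest the fold minimum, at 7.17 and 7.13 in BJELM, 7.09 and 7.01 in BJEL, and 6.18 and 6.16 in BJ (0.98 ± 0.08, adjusted p = 0.000655 in BJELM). The lowest member of the class in BJELM against BJ was SNORA57 at -0.24 ± 0.11 (adjusted p = 0.16).

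None of the 12 Cajal body RNAs was called in any comparison. At unadjusted p under 0.05 there were 5 in BJELM and 3 in BJEL against BJ and 3 in BJELM against BJEL, where the shares of all genes were 49.8%, 40.2% and 33.7%. Their median change was 0.16 in BJELM and 0.30 in BJEL against BJ, and the difference between the classes was not tested. SCARNA16, in SNHG20, had 7.82 and 8.0 in BJELM, 7.38 and 7.19 in BJEL, and 6.97 and 7.04 in BJ, with a difference of 0.90 ± 0.11 in BJELM (adjusted p = 0.00207). SCARNA12, in the prohibitin gene PHB2, had 11.63 and 11.54 in BJELM, 10.96 and 11.15 in BJEL, and 10.75 and 10.86 in BJ (0.78 ± 0.10, adjusted p = 0.00283). Both separated the BJELM arrays from the other 4, under the fold minimum. SCARNA9L, a copy of the SCARNA9 RNA within EIF1AX, had a wide spread, at 6.51 and 8.26 in BJELM, 5.90 and 6.74 in BJEL, and 5.23 and 6.10 in BJ. Its difference of 1.72 ± 0.61 in BJELM against BJ did not pass (adjusted p = 0.0899). A dimmer probe set of SCARNA9L, not used for the test, had a mean of 5.87, below the level of 6. Its signals were 6.47 and 6.57 in BJELM, 5.87 and 5.82 in BJEL, and 5.20 and 5.28 in BJ, and the lines did not overlap. With the mean of its probe sets SCARNA9L was called in BJELM against BJ (limma adjusted p = 0.0176). With a replicate block SCARNA9L was called in BJELM against BJ (adjusted p = 0.00065) and in BJELM against BJEL (1.07, adjusted p = 0.0116). The BJ mean of its tested probe set was below 6, so SCARNA9L reached that level only through the derived lines. Its calls in these other settings carry that limit.

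Grouped by the kind of host, the 22 members in 13 SNHG genes or GAS5 had a median change of 0.60 in BJELM and 0.52 in BJEL against BJ, with 4 and 3 of them rising, and -0.06 in BJELM against BJEL. The 27 members in 16 ribosomal protein genes had medians of 0.64, 0.50 and 0.21 in the same comparisons, with 5 rising in BJELM against BJ. The 41 members in 35 other protein-coding genes had medians of 0.40, 0.26 and 0.14, with 3 and 2 rising against BJ. These are 7.32% and 4.88% of the 41, near the shares of all genes that rose, against 18.2% and 13.6% of the members in SNHG genes or GAS5 and 18.5% and 0% of those in ribosomal protein genes, and the differences between host kinds were not tested. All rises in SNHG genes or GAS5 came from the SNHG1 locus (2 in BJELM, 2 in BJEL) and the SNHG17 locus (2 and 1). Members of 1 locus are not independent readings of a host kind. At the GAS5 locus, 6 box C/D members passed the mean of 6 and 0 were called. SNORD74 had 10.56 and 11.24 in BJELM, 10.64 and 11.12 in BJEL, and 9.63 and 10.24 in BJ, with differences of 0.97 ± 0.30 in BJELM (adjusted p = 0.062) and 0.95 ± 0.30 in BJEL (adjusted p = 0.0883). SNORD78 had 8.74 and 9.23 in BJELM, 8.88 and 9.21 in BJEL, and 8.07 and 8.62 in BJ. The 6 GAS5 members ranged from 0.26 to 0.97 in BJELM and from 0.46 to 0.95 in BJEL against BJ, and from -0.20 to 0.02 in BJELM against BJEL. At the SNHG5 locus, SNORD50A (0.98 ± 0.14, adjusted p = 0.00432) and SNORD50B (0.75 ± 0.17, adjusted p = 0.0216) in BJELM against BJ passed the adjusted p and missed the fold minimum.

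**Figure D3:**
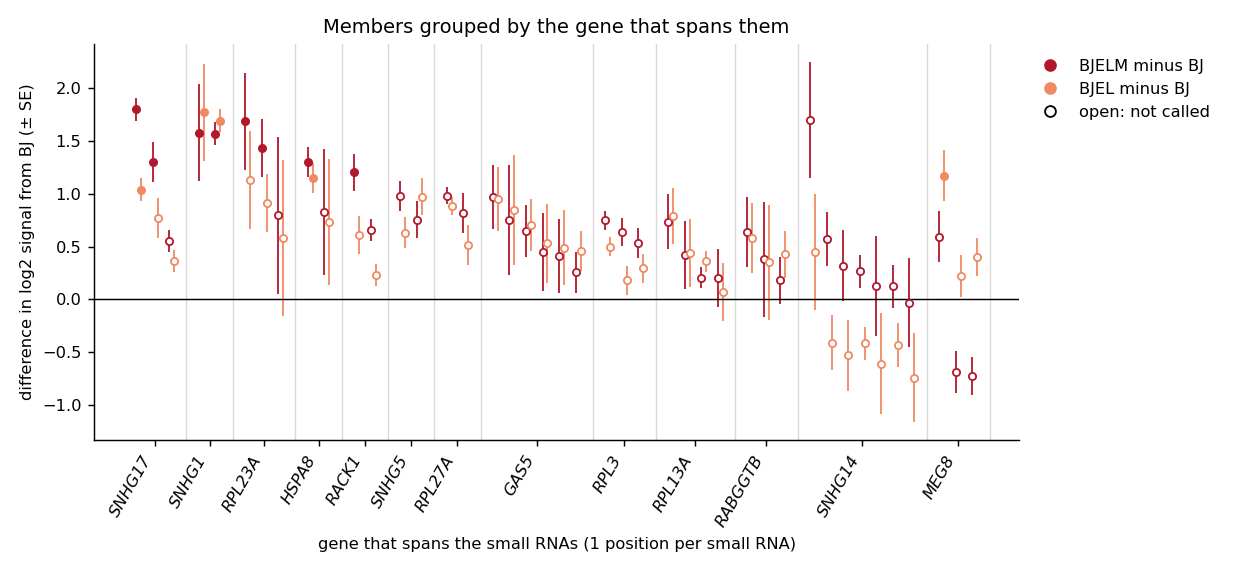
Difference in log2 signal from BJ with its SE (vertical axis) for members grouped by the gene that spans them (horizontal axis, 1 position per small RNA); red is BJELM minus BJ, orange is BJEL minus BJ, and filled points were called. The called members of SNHG17, SNHG1 and RPL23A lie between 1.3 and 1.8 in BJELM, the uncalled SNORD116-21 of SNHG14 lies at 1.7 with a wide SE, the 6 GAS5 members lie between 0.26 and 0.97 in BJELM, and in SNHG14 the BJEL values lie below 0 for 6 of 7 members.

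The hosts themselves were measured by a probe set of 1 symbol for 55 members in 43 hosts. The median change of the host was 0.34 in BJELM and 0.23 in BJEL against BJ, and the member stood above its host by a median of 0.28 and 0.22. The change of the member was higher than that of its host in 38 and 36 of the 55. Across these pairs Pearson's r between member and host changes was 0.03 in BJELM against BJ, 0.05 in BJEL against BJ and 0.47 in BJELM against BJEL. These values are descriptions, since members share hosts and all pairs share the same arrays. RPL23A had 12.83 and 12.87 in BJELM, 12.73 and 12.83 in BJEL, and 12.74 and 12.71 in BJ, a difference of 0.12 ± 0.08 (adjusted p = 0.362), next to the rises of SNORD4A and SNORD4B. HSPA8 differed by 0.18 ± 0.12 (adjusted p = 0.348) next to SNORD14E, RPL5 by 0.06 ± 0.08 (adjusted p = 0.692) next to SNORD21, and RPS2 by 0.08 ± 0.08 (adjusted p = 0.548) next to SNORA10. NCL had 11.78 and 12.20 in BJELM, 11.68 and 11.86 in BJEL, and 11.22 and 11.52 in BJ (0.62 ± 0.17, adjusted p = 0.043), a smaller difference than that of SNORA75. RPL23 differed by 0.88 ± 0.09 (adjusted p = 0.00132), next to the rise of 1.15 in SNORA21. Some hosts changed more than their member in BJELM against BJ. ODC1 rose by 1.26 ± 0.09 while its member SNORA80B differed by 0.0004. HAUS6 rose by 1.48 ± 0.11 while its member SCARNA8 differed by 0.56. HSPA8, RPL5 and RPS2 had means of 13.58, 13.39 and 13.05, close to 13.71, the highest mean of any gene here, and how far signals at that level are compressed was not tested. Ribosomal protein genes have many near-identical pseudogenes, and the host signals may hold these. Hosts were matched to probe sets by symbol, and where these probe sets lie in the genome was not checked. SNHG29, the other measured SNHG gene, had 11.21 and 11.31 in BJELM, 11.22 and 11.33 in BJEL, and 11.26 and 11.36 in BJ, and its 3 lines overlapped (-0.05 ± 0.09 in BJELM against BJ, adjusted p = 0.787).

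The SNORD116 cluster in SNHG14, a paternally expressed transcript of the Prader-Willi region, had 20 members on the array and 7 at the mean of 6. SNORD116-14 had 10.96 and 11.65 in BJELM, 10.18 and 10.47 in BJEL, and 10.52 and 10.95 in BJ. SNORD116-20 had 10.15 and 10.57 in BJELM, 9.66 and 9.70 in BJEL, and 9.99 and 10.19 in BJ. In both RNAs BJEL was the lowest line. Of the 7, 6 had both BJEL arrays below both BJ arrays, and 5 had both BJELM arrays above both BJEL arrays, with medians of -0.43 and 0.74. Of all genes 32.8% were lower without overlap in BJEL than in BJ, and 28.7% higher without overlap in BJELM than in BJEL. None was called: in BJELM against BJEL, SNORD116-20 reached 0.68 ± 0.16 (adjusted p = 0.0441), SNORD116-14 0.98 ± 0.26 (adjusted p = 0.0663) and SNORD116-21 1.25 ± 0.55 (adjusted p = 0.224). With a replicate block SNORD116-21 was called in that comparison (adjusted p = 0.00159) and in BJELM against BJ (1.70, adjusted p = 0.000143). The copies are near-identical in sequence, so their probe sets are not 7 independent readings. All 20 SNORD115 members, which neurons express from the same transcript, had means between 3.64 and 4.33.

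The SNORD113 and SNORD114 RNAs in MEG8, a maternally expressed transcript, had 6 members on the array and 3 at the mean of 6, and all 3 were lower in BJELM than in BJEL on every array, as were 29.96% of all genes. SNORD114-3 (probe set 7976816) had 9.25 and 9.62 in BJELM, 10.47 and 10.65 in BJEL, and 9.96 and 10.36 in BJ. It was the 1 member that fell in BJELM against BJEL (-1.12 ± 0.18, adjusted p = 0.0158), and against BJ it stood at -0.72 ± 0.18 (adjusted p = 0.0287). SNORD114-26 had 7.17 and 7.64 in BJELM, 8.37 and 8.26 in BJEL, and 7.87 and 8.30 in BJ, with -0.91 ± 0.20 in BJELM against BJEL (adjusted p = 0.040) and -0.68 ± 0.20 in BJELM against BJ (adjusted p = 0.0484). SNORD114-3 and SNORD114-26 were the 2 members past the adjusted p downward in BJELM against BJ. SNORD113-4 had 8.41 and 8.32 in BJELM, 8.98 and 8.90 in BJEL, and 7.38 and 8.17 in BJ, and rose by 1.17 ± 0.24 in BJEL against BJ (adjusted p = 0.0229), a call that was lost without BJ replicate 1 (0.77) or either BJEL array (adjusted p = 0.117 and 0.0836).

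**Figure D4:**
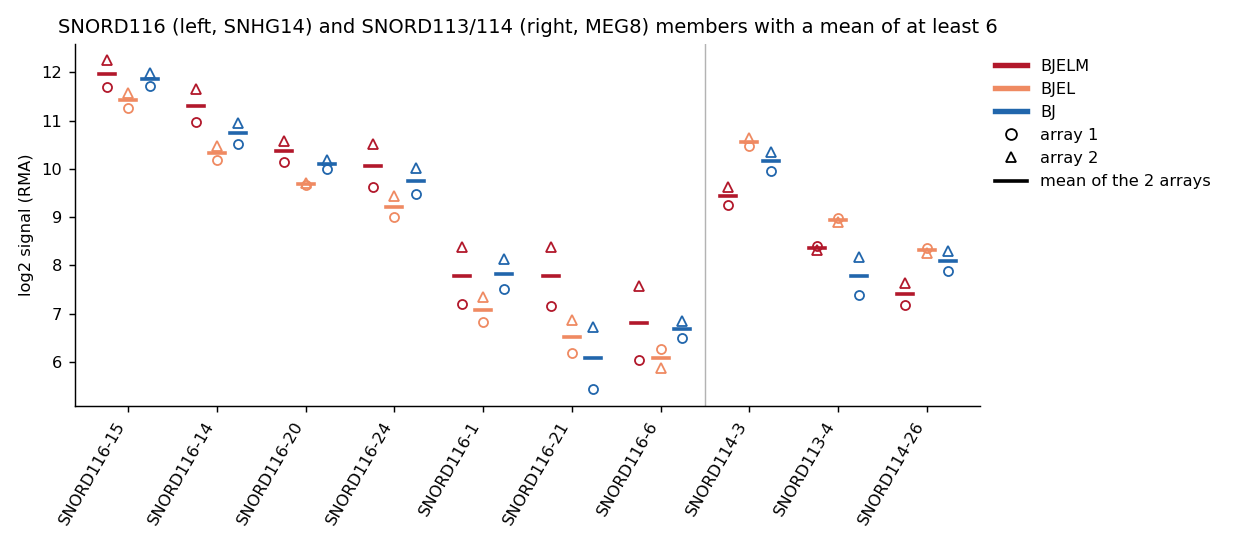
Log2 signal (vertical axis) on each array for the SNORD116 members (left) and the SNORD113 and SNORD114 members (right) with a mean of at least 6, with BJELM, BJEL and BJ from left to right within each member, circles for array 1, triangles for array 2 and bars for the mean. BJEL is the lowest line in 6 of 7 SNORD116 members and the highest in all 3 members of MEG8.

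The proteins that bind and mature snoRNAs were read from lists of textbook members. For scale, 5.68% of all genes at the mean of 6 rose in BJELM and 4.05% in BJEL against BJ. Of the box C/D core proteins 2 were measured and both rose in BJELM against BJ: the methyltransferase FBL (fibrillarin) had 12.34 and 12.43 in BJELM, 11.80 and 11.85 in BJEL, and 11.02 and 11.34 in BJ (1.21 ± 0.12, adjusted p = 0.00122), and NOP58 rose by 1.04 ± 0.11 (adjusted p = 0.00123). Of the 4 box H/ACA core proteins 1 rose, the pseudouridine synthase DKC1 (1.04 ± 0.19, adjusted p = 0.00961), and NOP10, NHP2 and GAR1 differed by 0.41 to 0.56. Of 13 factors that assemble snoRNA particles 6 rose and 0 fell, with a median of 1.00 against 0.009 over all genes at the mean of 6. They were led by NOLC1, a nucleolar and Cajal body chaperone of snoRNA particles, at 11.29 and 11.43 in BJELM, 10.73 and 10.66 in BJEL, and 9.63 and 9.80 in BJ (1.65 ± 0.10, adjusted p = 0.000284), and by the AAA ATPase RUVBL1 (1.26 ± 0.12, adjusted p = 0.000842). SHQ1, the dyskerin chaperone, had 9.96 and 9.90 in BJELM, 8.98 and 8.89 in BJEL, and 8.85 and 8.56 in BJ, and differed by 0.99 ± 0.12 between BJELM and BJEL (adjusted p = 0.00694), just under the fold minimum. In BJEL against BJ 0 of these 19 proteins were called, with medians of 0.75, 0.36 and 0.33 for the 3 lists, and in BJELM against BJEL 0 were called.

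Of 10 Cajal body and cap proteins 1 rose in BJELM against BJ, COIL, the coilin scaffold of the body (1.3 ± 0.09, adjusted p = 0.000431). The shares of all genes at the mean of 6 that rose were 5.68% in BJELM and 4.05% in BJEL against BJ. Of 19 proteins of the exosome and of 3′ end trimming 4 rose in BJELM and 3 in BJEL against BJ. TOE1, a deadenylase of small nuclear RNA ends, had 10.03 and 9.96 in BJELM, 10.13 and 9.86 in BJEL, and 8.68 and 8.83 in BJ, and rose by 1.24 ± 0.12 in both derived lines (adjusted p = 0.000948 and 0.00189). The exosome subunit EXOSC8 rose in both lines as well (1.33 ± 0.28, adjusted p = 0.0156 in BJELM), EXOSC2 and EXOSC5 rose in BJELM and EXOSC9 in BJEL. Of 7 factors of nonsense-mediated decay 0 were called, with medians of 0.34 in BJELM and 0.35 in BJEL against BJ. Among them SMG8 stood at 0.66 ± 0.09 in BJELM (adjusted p = 0.00294) and SMG5 at 0.47 ± 0.11 in BJEL (adjusted p = 0.0394), both under the fold minimum.

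Other lists held transcripts that share features with the hosts or the members. Their counts include genes below the mean of 6. Over all 18417 genes, without that minimum, 753 rose and 866 fell in BJELM against BJ. Of 62 cytosolic ribosomal protein genes, 1 rose in BJELM against BJ (RPS24, 1.24 ± 0.25, adjusted p = 0.0125) and 1 fell (RPS27L, a paralogue of a small-subunit protein gene, -1.32 ± 0.16, adjusted p = 0.00216), with a median of 0.17 in BJELM and 0.03 in BJEL against BJ. Of 15 other genes with a 5′ terminal oligopyrimidine start 0 were called, with medians of 0.18 and 0.04. These medians were not tested against those of the members. Of 24 other small noncoding RNAs, 15 of them at the mean of 6, 5 rose in BJELM against BJ: RNU2-1, RNU4-1, RNU5D-1 and RNU5E-1 of the spliceosome and TERC, the telomerase RNA, which ends in a box H/ACA domain. RNU5D-1 had a mean of 5.52, below the level of 6, and the 15 at that level had a median of 0.61 in BJELM and 0.28 in BJEL against BJ. TERC had 9.72 and 9.57 in BJELM, 9.66 and 9.62 in BJEL, and 8.53 and 8.70 in BJ, and rose by 1.03 ± 0.10 in BJELM (adjusted p = 0.0011) and 1.02 ± 0.10 in BJEL (adjusted p = 0.00221). Of 189 microRNA genes and microRNA host genes 1 rose, the host gene MIR17HG, and 3 fell in BJELM against BJ: MIR221, MIR22HG and MIR31HG. MIR17HG, which carries a microRNA cluster and had a mean of 5.75, below the level of 6, rose by 1.16 ± 0.16 (adjusted p = 0.00354). MIR31HG fell by 1.82 ± 0.16 (adjusted p = 0.000804).

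The members were noisier than most genes. Their median SE was 0.19, against 0.12 over all genes at the mean of 6, and in box C/D members it was 0.24. The difference between arrays was not symmetric: array 2 had a higher signal than array 1 in all 3 lines in 38 of the 59 box C/D members (64.4%), in 12 of 34 box H/ACA members (35.3%), in 3 of 12 Cajal body RNAs and in 19.2% of all genes at the mean of 6. In box C/D members the median of array 2 minus array 1 was 0.48 in BJELM, 0.25 in BJEL and 0.48 in BJ. It was 0.13, 0.03 and 0.06 in box H/ACA members and -0.06, -0.02 and -0.04 over all genes. Of the other 15 small noncoding RNAs 0 were higher on array 2 in all 3 lines. By the annotated length of the RNA, the mean of the 3 differences had a median of 0.42 in 32 members under 80 nt, 0.50 in 21 members of 80 to under 100 nt, 0.02 in 36 members of 100 to under 140 nt and 0.11 in 16 longer members. SNORD42A (61 nt) was 1.89, 1.21 and 1.27 higher on array 2 in BJELM, BJEL and BJ, and the box H/ACA RNA SNORA38B (132 nt) was 2.46, 2.36 and 0.86 higher. The labels name no batch for the array numbers, and the part of this difference in the comparisons between lines was not tested beyond the values without single arrays and a fit with the replicate number as a block. With that replicate block 17 members rose in BJELM and 8 in BJEL against BJ, and 2 rose in BJELM against BJEL.

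**Figure D5:**
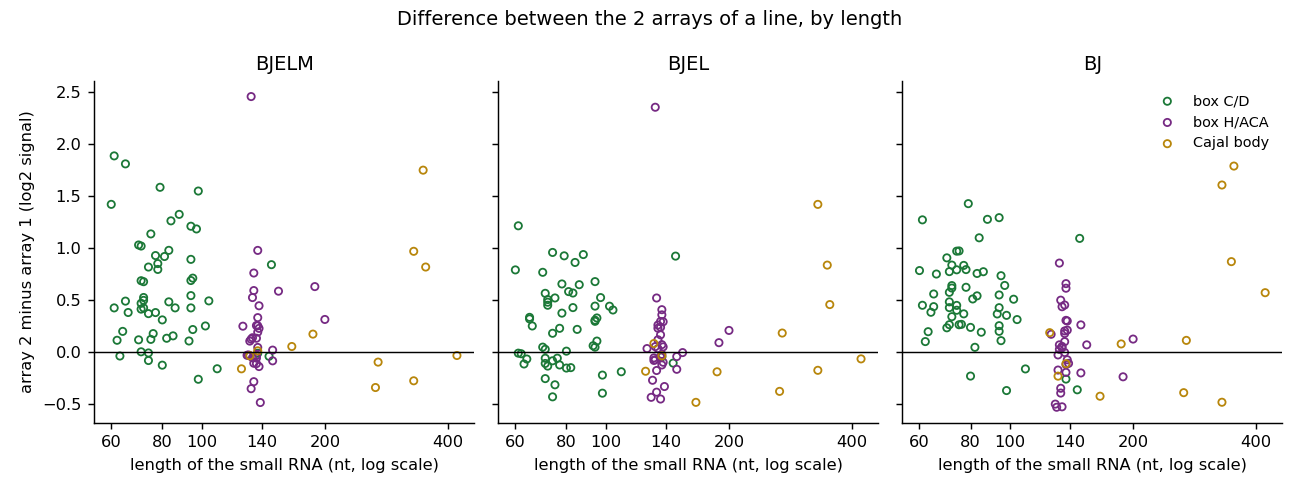
Array 2 minus array 1 of a line in log2 signal (vertical axis) against the annotated length of the small RNA in nucleotides (horizontal axis, log scale) for BJELM, BJEL and BJ, with colors for the 3 classes. Box C/D members, most of them under 100 nt, lie mainly above 0 in each line, with medians of 0.48, 0.25 and 0.48, while box H/ACA members scatter around 0.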

How the data were processed

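Total RNA of BJ, BJEL and BJELM cells was labelled with random primers and hybridised to Affymetrix Gene 1.0 ST arrays, 2 biological replicates per line. The authors deposited log2 signals from the RMA method (Expression Console 1.3.1, defaults kept), which corrects background, equalises the distributions of all 6 arrays and summarises probes. Arrays have no count depth, and their number limits the precision. The table holds 33297 probe sets with 0 missing values, of which 19460 list 1 symbol in the platform annotation, 1754 several and 12083 are not listed. A symbol was read from its 1-symbol probe set with the highest mean, which gave 18417 genes. Of the members, 202 probe sets gave 194 symbols, 194 matched RefSeq (GRCh38.p14) by Entrez ID, 7 had several probe sets, and another 94 symbols occur only on probe sets with several symbols and were left out. The gene spanning a small RNA is the smallest such span in RefSeq, without regard to strand, which that table does not give, and the build of the array annotation is not given in the sources used here. Promoter sequences are from RefSeq. Chromatin immunoprecipitation data were left aside.

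Differences were fitted with limma 3.58.1 (R 4.3.3) over all 6 arrays with a mean per line, 3 residual and 3.13 prior degrees of freedom, two-sided moderated tests and Benjamini-Hochberg adjustment over the 18417 genes. Calls needed an adjusted p under 0.05 and 2-fold. In data simulated for BJELM against BJ on 18417 genes, 70% of genes changed by 1.2 and 95% of those changed by 2 (log2) were recovered and 1 unchanged gene was called. The changed genes were drawn from all genes and the arrays were independent of each other. These shares therefore do not describe the members, whose median SE was 0.19 against 0.12 over all genes at the mean of 6. Members, the 12 gene lists and the rule for named genes (every SNHG gene, called members up to 10 per comparison, the members next to the level minimum, up to 4 called genes per list, MYC, TERT and hosts) were chosen with earlier results of these data known. Members named beyond these, as examples of a class, locus or spread, were chosen after their values were seen. Alternatives left out each array, fitted only 2 groups, added a replicate block, changed normalization, prior, level and fold minimum, adjusted p and probe sets, or used a plain Welch t-test. The modified t-test of the study was not run.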

Additional observations from a re-analysis of the deposited data

Results flagged for a closer look

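SNORD114-3 was set aside because its direct comparison of the derived lines passed the test: it stood at -1.12 ± 0.18 in BJELM against BJEL (limma adjusted p = 0.0158, n = 2 arrays per line), while against BJ it was lower in BJELM (-0.72 ± 0.18) and 0.40 ± 0.18 in BJEL. Without BJEL replicate 1, BJEL replicate 2 or BJELM replicate 1 the call was lost, with changes of -1.21, -1.03 and -0.94.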

How the results depend on the processing

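With each array left out in turn, 9 to 20 members rose in BJELM against BJ, 2 to 9 rose in BJEL against BJ, and in BJELM against BJEL 0 to 3 rose and 0 to 3 fell. The calls of SNORA71A, SNORA71C, SNORA75, SNORD14E and SNORD30 in BJELM, and of SNORD14E and SNORD30 in BJEL, each against BJ, held without any 1 array. The replicate numbers of 2 arrays per line do not establish pairs, although array differences correlated between lines. Pearson's r was 0.70 to 0.77 over the members at the mean of 6 and 0.51 to 0.59 over all genes at that level. With a replicate block 17 members rose in BJELM and 8 in BJEL against BJ, the 14 and 6 among them, and in BJELM against BJEL 2 rose (SCARNA9L and SNORD116-21) and 1 fell. With probe sets of several symbols included, 33 and 17 members rose against BJ. That setting adds 94 symbols, and 79 probe sets of several symbols list a member, so these counts hold repeated readings. Without the fold minimum 39 rose and 2 fell in BJELM against BJ, 19 rose in BJEL against BJ, and 5 rose and 2 fell in BJELM against BJEL. At an adjusted p under 0.01, 8, 3 and 0 members rose and 0 fell in these comparisons. The plain Welch t-test at unadjusted p called 3 rises in BJELM and 3 in BJEL against BJ and 0 falls in BJELM against BJEL, and 0 of each after Benjamini-Hochberg adjustment. Quantile normalization, median centring, the intensity trend, the fit on genes at the mean of 6, the fit of only 2 groups, the mean of probe sets and other level minimums kept each count within 1.5 times. The cause of these shifts was not tested.

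Some single-gene differences changed sign. With each array left out, the difference of MYC in BJELM against BJ ran from -0.63 (without BJELM replicate 1) to 0.036 (without BJELM replicate 2). SNHG29 ran from -0.092 to 0.018 in BJEL against BJ, with 0.011 without BJ replicate 2 and 0.0011 for the mean of its probe sets. In BJELM against BJEL it ran from -0.067 to 0.043, with 0.035 without BJELM replicate 1 and 0.029 under median centring. TERT in BJELM against BJEL ran from -0.16 to 0.097, with 0.012 under median centring. With 2 arrays per line, box C/D members, whose median SE was 0.24, are the least precise class.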
